A study of Homo sapiens with 9 samples.

Results

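The pair of miR-103 and miR-107 consists of hsa-miR-103a-3p and hsa-miR-107, which were selected by name from the deposited table. They account for 2 of 2652 mature miRNA names and for 3 of its 2883 locus rows, since miR-103a-3p is encoded at 2 places in the genome and its loci were summed. Small RNA was sequenced from ES-2 cells, an established ovarian cancer cell line. All libraries derived from wild-type, untreated cells of this line, so that no genotype or drug distinguished the groups. The 9 libraries comprised 3 of the extract before trapping (input), 3 of the material retained by an MS2 control RNA and 3 of the material retained by the 3'UTR of PD-L1. In miTRAP, a bait RNA transcribed in vitro carries MS2 loops, is held on a resin by an MS2-binding protein, and retains miRNAs from a cell extract. Per the study's methods, more PD-L1 bait than MS2 bait was immobilised, so bait sequence and bait amount cannot be told apart in the comparison of the trapped groups. The study describes its experiments in general as done in biological replicates, while the labels of these libraries do not say whether they came from separate cultures. The p-values measure the spread between these libraries, part of which may be technical.

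miRNAs guide Argonaute proteins to mRNAs mainly through the seed, the bases 2 to 8 of the mature strand, and sites in 3'UTRs are commonly classed by how many seed bases they match. miR-103a and miR-107 lie in introns of the pantothenate kinase genes, whose enzymes catalyse the first step of coenzyme A synthesis. The pair is known for repressing DICER1, the nuclease that matures miRNAs, and for effects on insulin sensitivity through caveolin-1. PD-L1, encoded by CD274, is the ligand of the immune checkpoint receptor PD-1 on T cells.

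The mature sequences are shown first because the comparison of the pair with its relatives turns on where their common bases lie. They are RefSeq sequences of GRCh38.p14, written 5' to 3' with bases 2 to 8 in capitals.
hsa-miR-103a-3p: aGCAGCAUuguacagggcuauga
hsa-miR-107: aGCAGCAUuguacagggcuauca
hsa-miR-16-5p: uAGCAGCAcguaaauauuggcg
hsa-miR-15b-5p: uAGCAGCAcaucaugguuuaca
hsa-miR-497-5p: cAGCAGCAcacugugguuugu
hsa-miR-503-5p: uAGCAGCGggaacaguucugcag

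miR-103a-3p and miR-107 each had 23 bases, and the first 21 were shared. They differed by the single substitution G22C, with the base of miR-103a-3p first and positions counted from 1 at the 5' end. A read that ends at or before base 21 cannot be assigned to either, so each comparison below is also given for the summed counts of the pair. No other of the 2363 names with a RefSeq sequence had the seed of the pair. The hexamer AGCAGC began at base 1 in the pair and at base 2 in miR-15a-5p, miR-15b-5p, miR-16-5p, miR-195-5p, miR-424-5p and miR-497-5p, which have a common seed. It also began at base 2 in miR-503-5p and miR-646, and these 8 relatives are together known with the pair as the miR-15 and miR-107 group. Outside that list, it began at base 2 in miR-6838-5p, which had 11 counts in all, and at base 3 in miR-4524a-5p and miR-4524b-5p, which had 0.

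The mature miR-103a-3p was encoded at chr20:3917541-3917563 on the plus strand (MIR103A2) and at chr5:168560904-168560926 on the minus strand (MIR103A1). miR-107 was encoded at chr10:89592756-89592778 on the minus strand (GRCh38). In the GENCODE annotation of GRCh37, MIR103A2 lay within PANK2, MIR103A1 within PANK3 and MIR107 within PANK1, each on the strand of its host and overlapping none of its exons. The 2 loci of miR-103a-3p yield an identical mature strand, and the table divided their reads nearly evenly. The chromosome 20 locus held between 47.8% and 53.57% of the counts, and the 95% Wilson interval contained 50% in 8 of 9 libraries. The exception was replicate 2 of the PD-L1 3'UTR group, with 53.57% (50.55% to 56.56%). The opposite strand was nearly undetected. miR-103a-2-5p had 2, 4 and 6 counts in the input and 0 in every trapped library, miR-103a-1-5p had 1 count in all, and miR-103b, the antisense miRNA of both loci, had 0. These counts are at the resolution of the libraries, in which 3 counts corresponded to between 0.501 and 4.459 CPM without TMM factors.

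An input library held 3794799 to 5983577 counts, an MS2 control library 1156261 to 2236535, and a PD-L1 3'UTR library 672824 to 1237652. Replicates of a group differed by more than sampling noise in every pair. Levels are given as CPM, counts relative to the library total after correction by TMM factors for library composition. They are shares of a library, and the absolute amount of miRNA retained by a bait was not measured. Of the 1500 names with at least 1 count, 408 passed the filter on low counts and were tested, and both members of the pair were among them.

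miR-103a-3p was far more abundant than miR-107, and both were highest in the input, intermediate on the PD-L1 3'UTR and lowest on the MS2 control. In the input, miR-103a-3p reached 6401, 6864 and 6713 CPM in replicates 1 to 3. On the MS2 control it reached 568.3, 692.7 and 662.8 CPM. On the PD-L1 3'UTR it reached 1030, 1410 and 1482 CPM. No library of one group reached into the range of another. In single comparisons, groups failed to overlap in the pair's direction for 32.6% to 39.7% of all miRNAs tested. The share with all 3 groups apart was not counted. The group means were 6659 ± 236, 641.3 ± 65.0 and 1307 ± 243 CPM (SD, n = 3). In order of abundance among the 408 miRNAs, miR-103a-3p stood at place 25 in the input, 66 on the MS2 control and 63 on the PD-L1 3'UTR.

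miR-107 rested on fewer reads. It had 1126 to 1856 counts in an input library, 68 to 91 on the MS2 control and 63 to 170 on the PD-L1 3'UTR. Its levels were 436.2, 379.6 and 418.1 CPM in the input, 49.1, 36.1 and 51.5 CPM on the MS2 control, and 94.9, 84.5 and 123.3 CPM on the PD-L1 3'UTR. These groups likewise did not overlap, a pattern whose share over all miRNAs was not counted. The means were 411.3 ± 28.9, 45.6 ± 8.29 and 101 ± 20.1 CPM (SD, n = 3), which placed miR-107 at 96, 204 and 161 of 408. Together, the pair made up 0.536% ± 0.0272 of all counts in the input, 0.0802% ± 0.0029 on the MS2 control and 0.158% ± 0.0266 on the PD-L1 3'UTR (SD, n = 3).

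**Figure D1:**
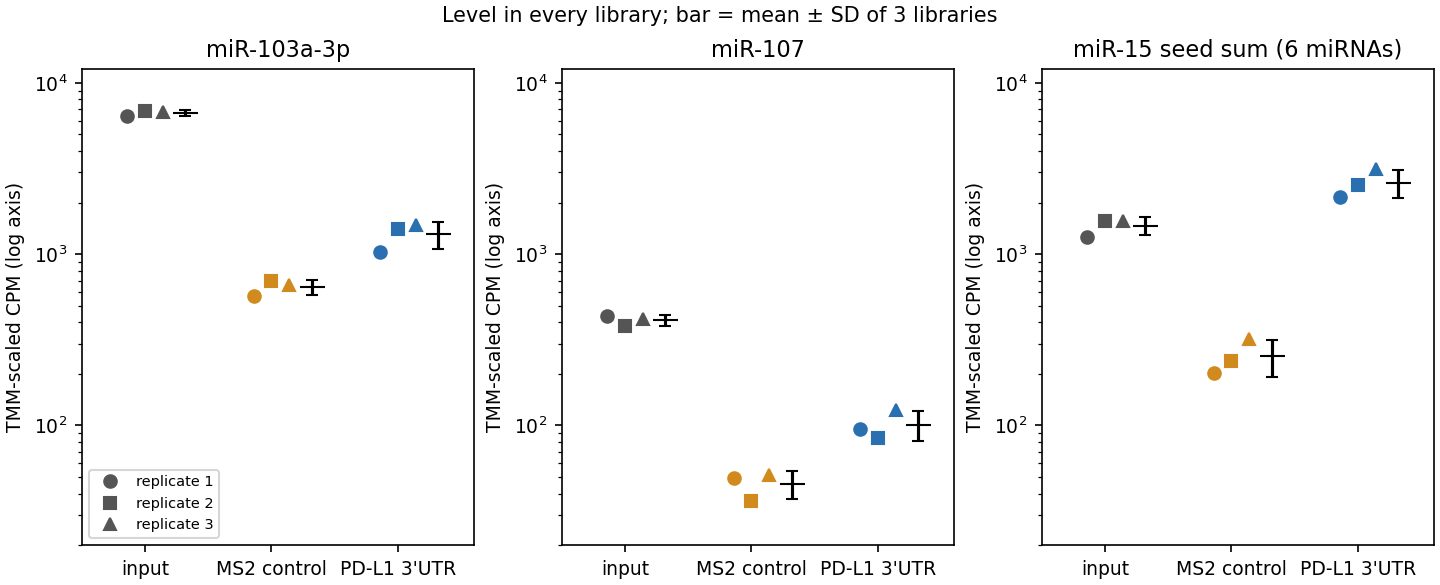
TMM-scaled CPM on a log axis in each of the 9 libraries for miR-103a-3p, miR-107 and the sum of the 6 miR-15 seed miRNAs, with symbols for replicates and black bars for the mean ± SD of 3 libraries. Both members of the pair ran from the input (means of 6659 and 411.3 CPM) through the PD-L1 3'UTR (1307 and 101 CPM) to the MS2 control (641.3 and 45.6 CPM), whereas the miR-15 seed sum was highest on the PD-L1 3'UTR (2604 CPM).

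Trapping by the PD-L1 3'UTR was set against that by the MS2 control to ask which miRNAs the bait retained beyond the background of resin and loops. Both members were higher on the PD-L1 3'UTR. miR-103a-3p was 2.04-fold higher, at 1.03 ± 0.154 on the log2 scale (SE, adjusted p = 0.000195 by edgeR's quasi-likelihood test with Benjamini-Hochberg adjustment over 408 miRNAs). miR-107 was 2.23-fold higher, at 1.16 on the log2 scale (SE 0.21 and adjusted p = 0.000678, edgeR). The summed pair gave 1.04 (SE 0.151, adjusted p = 0.000145, edgeR). Higher levels at this threshold were found for 128 of the 408 miRNAs, or 31.4%, and the trapped groups failed to overlap in the upward direction for 32.6%. Ordered from the largest rise, miR-107 stood at place 112 and miR-103a-3p at 119. The pair was thus called higher, as were many of the miRNAs tested, and many of these had larger rises.

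Set against the input, the pair was lower in the material on the PD-L1 3'UTR. The log2 fold change was -2.35 for miR-103a-3p (SE 0.16, adjusted p = 6.05e-07, edgeR), a 5.09-fold lower level. It was -2.02 for miR-107 (SE 0.208, adjusted p = 1.57e-05, edgeR), a 4.06-fold lower level. The sum gave -2.32 (SE 0.156, adjusted p = 5.29e-07, edgeR). Lower levels were called for 32.4% of miRNAs and higher levels for 34.1%, and groups without overlap in the downward direction made up 37.5%. Ordered from the largest fall, miR-103a-3p stood at place 36 and miR-107 at 50 of 408. Thus both members were higher than on the MS2 control and lower than in the input.

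The MS2 control held less of the pair still. Against the input, miR-103a-3p differed by a log2 fold change of -3.38 (SE of 0.167 and adjusted p = 1.05e-07, edgeR), or 10.4-fold. miR-107 differed by -3.18 (SE 0.219, adjusted p = 9.94e-07, edgeR), or 9.06-fold. The sum gave -3.36 (SE 0.163, adjusted p = 1.07e-07, edgeR). Lower levels were called for 37.0% of miRNAs, and 39.7% had groups without overlap in this direction, with miR-103a-3p at place 24 and miR-107 at place 29 from the largest fall. The 3 comparisons draw on the same 3 groups of libraries, and so are not independent of each other.

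Comparisons with the input depend on how libraries of different composition are scaled. When library totals replaced TMM factors, the median over all 408 miRNAs shifted on the log2 scale by 0.57 for the PD-L1 3'UTR and by 0.63 for the MS2 control, each against the input. miR-103a-3p then differed by -1.78 and -2.75, and miR-107 by -1.45 and -2.55, and the direction held for both. The numbers of miRNAs called against the input became 192 higher and 89 lower for the PD-L1 3'UTR, compared with 139 and 132 under TMM. For the MS2 control they became 199 higher and 104 lower, compared with 134 and 151.

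Among the 6 relatives with the miR-15 seed, miR-15a-5p, miR-15b-5p, miR-16-5p and miR-424-5p each had their highest mean level on the PD-L1 3'UTR. The pair had its highest in the input, and the share of all miRNAs tested with either order was not counted. Of the 6, miR-195-5p and miR-497-5p reached the level asked by the low-count filter in all 3 libraries of the PD-L1 3'UTR group only. A difference was thus a condition of their being tested. They enter no count of calls here, but they are part of the sum of the 6. The other 4 (miR-15a-5p, miR-15b-5p, miR-16-5p and miR-424-5p) also reached it in all 3 input libraries, and miR-15a-5p in no MS2 control library. On the PD-L1 3'UTR, these 4 were called higher than on the MS2 control, where 31.4% of all miRNAs were, with log2 fold changes from 3.05 to 4.44. They were also called higher than in the input, where 34.1% of all miRNAs were, with 0.57 to 2.24, though miR-16-5p and miR-15b-5p not in every alternative fit. In the MS2 control against the input they were called lower, where 37.0% of all miRNAs were, with -3.39 to -1.95. These counts describe miRNAs whose pattern in these data was known when the list was made.

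miR-16-5p, the most abundant of the 6 and known for restraining cyclins and BCL2, showed the difference from the pair most directly because its counts were high. It had 919.4, 1147 and 1125 CPM in the input, 165.5, 169.3 and 236.1 CPM on the MS2 control, and 1280, 1477 and 1975 CPM on the PD-L1 3'UTR. It was lowest on the MS2 control, as was the pair, but its PD-L1 3'UTR libraries all lay above its input libraries. The share of all miRNAs without overlap in this direction was not counted, and 34.1% were called higher than in the input. For miR-16-5p, the log2 fold change was 3.05 against the MS2 control (SE 0.22, adjusted p = 7.14e-07, edgeR) and 0.57 against the input (SE 0.203, adjusted p = 0.0293, edgeR). In the input, miR-103a-3p exceeded miR-16-5p in every library, and on the PD-L1 3'UTR miR-16-5p exceeded miR-103a-3p in 3 of 3 libraries. The call against the input was not stable. It was lost in 11 of 17 alternatives, with log2 fold changes down to 0.31 and adjusted p up to 0.353 (edgeR), among them the fits without any 1 of the input libraries, without replicate 1 or 3 of the MS2 control and without replicate 2 or 3 of the PD-L1 3'UTR. The direction and the rise over the MS2 control held in all 17.

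The other 5 miRNAs of this seed were rarer. miR-15b-5p had a log2 fold change of 4.44 against the MS2 control and 1.05 against the input, the second of which lost its call in 5 of 17 alternatives (down to 0.80, adjusted p up to 0.112, edgeR, without replicate 1 of the input). miR-424-5p gave 3.70 and 1.75. miR-15a-5p gave 4.34 and 2.24, miR-195-5p 2.40 and 2.19, and miR-497-5p 3.53 and 3.46. For miR-195-5p and miR-497-5p, a difference was a condition of being tested, so their values are only a description. The last 3 had mean levels of 3.66, 6.62 and 2.41 CPM on the MS2 control, where single libraries held few counts, and their SEs were larger. Their values against the MS2 control also moved with 1 library, to 5.05 for miR-15a-5p and 5.04 for miR-497-5p without replicate 3 of the MS2 control and to 3.54 for miR-195-5p without its replicate 2. miR-195-5p and miR-497-5p were the 2 not called between the MS2 control and the input (log2 fold change -0.20, adjusted p = 0.722, and -0.07, adjusted p = 0.943, edgeR). Without replicate 2 of the MS2 control, miR-195-5p was called lower there (-1.34, adjusted p = 0.0186, edgeR).

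miR-503-5p holds the hexamer at base 2 as well, with a seed that differs from that of miR-15 at its end. It was not called between the trapped groups, with 272.2, 267.6 and 308.7 CPM on the MS2 control and 195.4, 269.7 and 224.9 CPM on the PD-L1 3'UTR (log2 fold change -0.30, SE 0.164, adjusted p = 0.139, edgeR). It was lower than in the input on the PD-L1 3'UTR (-1.35, SE 0.166, adjusted p = 5.39e-05, edgeR) and on the MS2 control (-1.05, SE 0.164, adjusted p = 0.000243, edgeR). miR-646 had 0 counts.

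**Figure D2:**
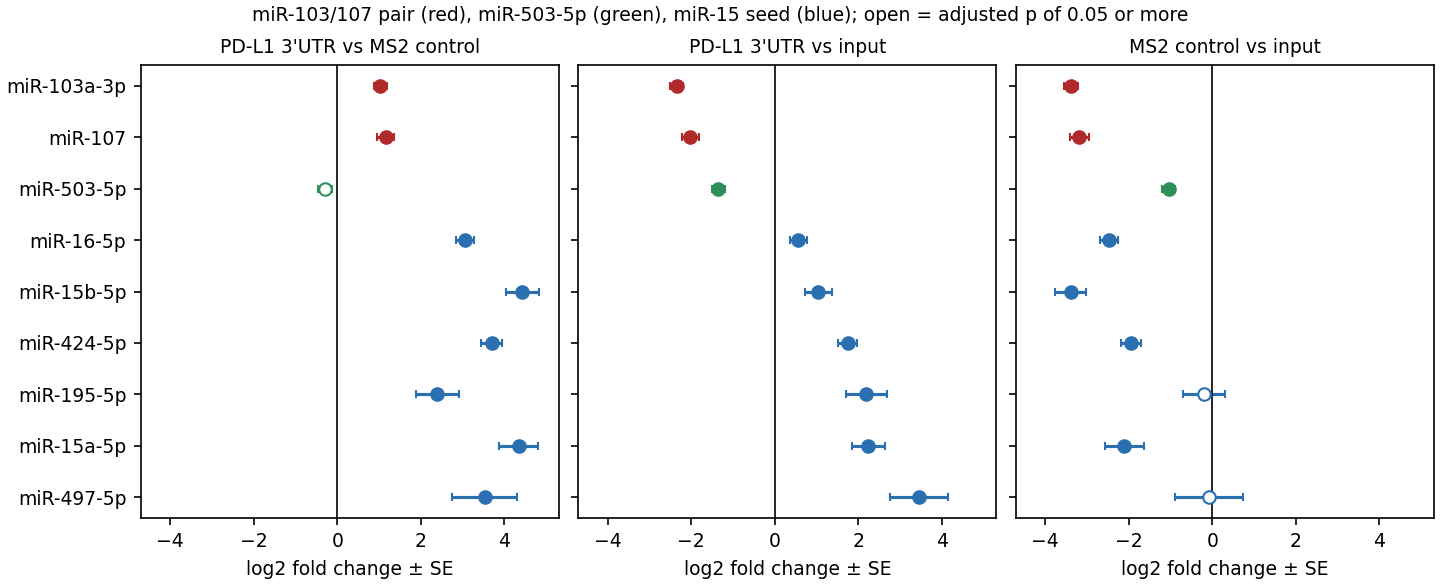
Log2 fold changes with their SE from the edgeR fit for the pair (red), miR-503-5p (green) and the 6 miR-15 seed miRNAs (blue) in the 3 comparisons, with open circles where the adjusted p was 0.05 or more. The pair lay right of 0 against the MS2 control (1.03 and 1.16) but left of 0 against the input (-2.35 and -2.02). In the latter panel, miR-15a-5p, miR-15b-5p, miR-16-5p and miR-424-5p lay right of 0 (0.57 to 2.24), and 34.1% of all 408 miRNAs were called higher. A difference was a condition of testing miR-195-5p and miR-497-5p, which are drawn but not counted.

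The ratio of the pair to the miR-15 seed miRNAs within a library does not depend on scaling. The pair had 541.8, 461.8 and 456.8 counts per 100 counts of the 6 miR-15 seed miRNAs in the input, 304.1, 307.4 and 222.1 on the MS2 control, and 52.2, 58.9 and 51.4 on the PD-L1 3'UTR. The groups did not overlap, and the pair outnumbered the 6 in all input and MS2 control libraries but in none of the PD-L1 3'UTR libraries. These ratios are given as a description, with no test, since the 6 miRNAs were listed with their pattern known. From the MS2 control to the PD-L1 3'UTR the log2 ratio fell by 2.35 (SE 0.166), or 5.08-fold, and from the input to the PD-L1 3'UTR it fell by 3.17 (SE 0.101), or 8.97-fold. From the input to the MS2 control it fell by 0.82 (SE 0.173), or 1.77-fold.

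The proportion of miR-107 to miR-103a-3p did not separate the groups. In the input, 6.81, 5.53 and 6.23 counts of miR-107 were found per 100 counts of miR-103a-3p. The MS2 control had 8.65, 5.21 and 7.76, and the PD-L1 3'UTR 9.21, 5.99 and 8.32. All 3 groups overlapped, and their means were 6.19 ± 0.642, 7.21 ± 1.78 and 7.84 ± 1.66 (SD, n = 3). No difference across groups was detected (exact permutation test of F, p = 0.429). The log2 ratio was higher by 0.13 on the PD-L1 3'UTR than on the MS2 control, with an SE of 0.291 from groups taken as unpaired. It was higher by 0.32 (SE 0.206) than in the input.

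**Figure D3:**
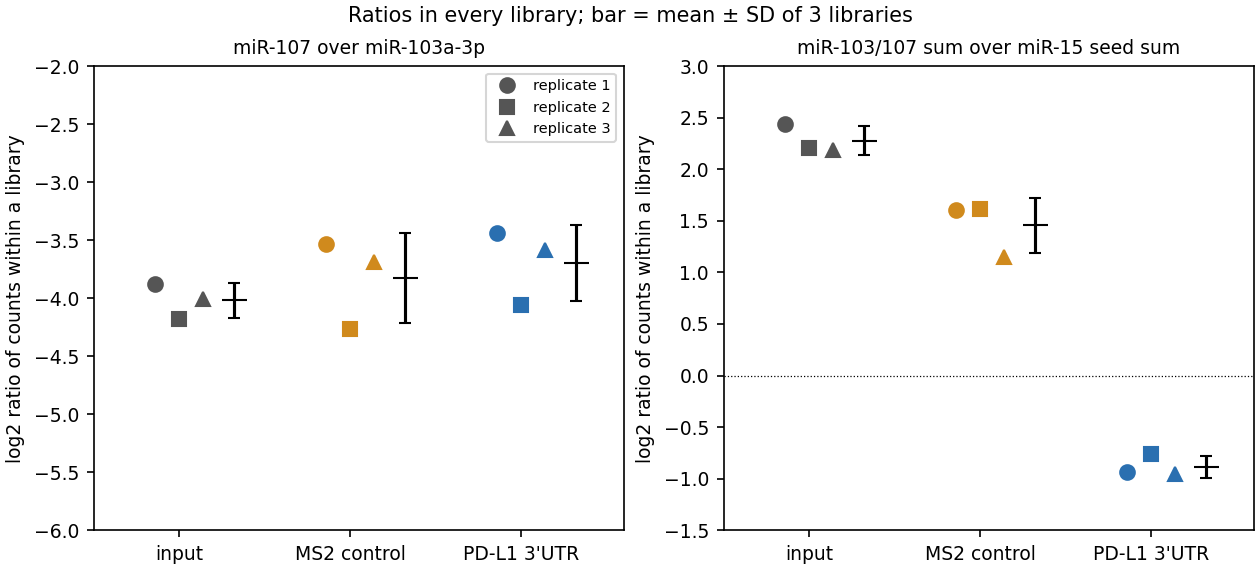
Log2 ratio of counts within each library, for miR-107 over miR-103a-3p (left) and for the sum of the pair over the sum of the 6 miR-15 seed miRNAs (right), with symbols for replicates and black bars for the mean ± SD of 3 libraries; the vertical ranges of the panels differ. On the left the groups overlapped, and on the right they separated, with means of 2.28 in the input, 1.46 on the MS2 control and -0.89 on the PD-L1 3'UTR.

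Both seeds were then searched in the 3'UTR of CD274 because the pair and its relatives hold the common hexamer at different bases. The 3'UTR of transcript CD274-202 spanned 2692 bases of exon 7 (chr9:5467863-5470554, GRCh37, plus strand). Which stretch of it the bait carried was not analysed here. Sites were searched in this direction only, as the mRNA reads. For the pair it held no 8mer (ATGCTGCA, found in 6.4% of 4191 annotated 3'UTRs of at least this length, each cut to it), no 7mer against bases 2 to 8 (ATGCTGC, 19.9%) and no 7mer with a final A (TGCTGCA, 25.1%). It held 1 hexamer against bases 2 to 7 (TGCTGC, 61.3%) and 1 offset hexamer against bases 3 to 8 (ATGCTG, 61.8%). For the miR-15 seed it held 1 match to bases 2 to 8 (TGCTGCT, 34.0%), at the place of the pair's hexamer. For miR-503-5p it held a match to bases 2 to 7 at this place (GCTGCT, 61.8%) but none to bases 2 to 8 (CGCTGCT, 6.2%). The sites are printed with the matched bases in capitals.
CD274 site, pair bases 2 to 7, chr9:5468429-5468434: actaaactTGCTGCttaatgat
CD274 site, miR-15 seed bases 2 to 8, chr9:5468429-5468435: actaaactTGCTGCTtaatgatt
CD274 site, pair bases 3 to 8, chr9:5469908-5469913: tcactttgATGCTGtacttgca

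The first and second of these are the same stretch of the 3'UTR, and overlap by the 6 bases that both seeds match. These matches describe letters in the annotated 3'UTR and do not show binding.

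The miRNAs whose profile over the 9 libraries was most like that of the pair were found by the root mean square difference of log2(CPM + 1) values, each centred on its own mean. The nearest of 406 candidates to the sum of the pair was miR-10a-5p, a miRNA encoded in the HOXB cluster, at 0.261. The median over all candidates was 1.65. From the same sum, miR-107 lay at 0.263 and miR-103a-3p, which makes up most of it, at 0.0184. Between miR-103a-3p and miR-107 themselves the difference was 0.28. miR-10a-5p was followed by miR-221-5p at 0.35, miR-361-5p at 0.36, miR-505-3p at 0.40 and miR-767-5p at 0.49. miR-503-5p stood at 0.96, and the 6 miR-15 seed miRNAs at 1.22 to 2.32, with miR-195-5p at 1.88 and miR-497-5p at 2.32. By this measure over these libraries, the 5 listed miRNAs were thus each closer to the pair than any of its relatives in that group. Only the nearest 5 were listed, and how many miRNAs in all were closer than the relatives was not counted.

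miR-10a-5p had 12581, 13104 and 15231 CPM on the PD-L1 3'UTR and 6901, 7004 and 7409 CPM on the MS2 control, below an input of 48975 to 52347 CPM. Its log2 fold changes were 0.94 against the MS2 control (SE 0.108, adjusted p = 2.33e-05, edgeR) and -1.88 against the input (SE 0.11, adjusted p = 2.19e-07, edgeR). miR-361-5p, at 1.11 and -1.71, was also called in both comparisons. miR-221-5p, miR-505-3p and miR-767-5p were called lower than in the input (-2.91, -2.56 and -2.10). They were not called against the MS2 control (0.34, 0.46 and 0.73, with adjusted p = 0.213, 0.307 and 0.143, edgeR). Without replicate 3 of the MS2 control, miR-767-5p was called higher (1.16, adjusted p = 0.0287, edgeR). These 5 miRNAs were picked for their likeness to the pair over the same libraries. Their directions and calls thus follow in part from that choice and are only a description. Of all miRNAs tested, 32.4% were called lower than in the input and 31.4% higher than on the MS2 control.

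**Figure D4:**
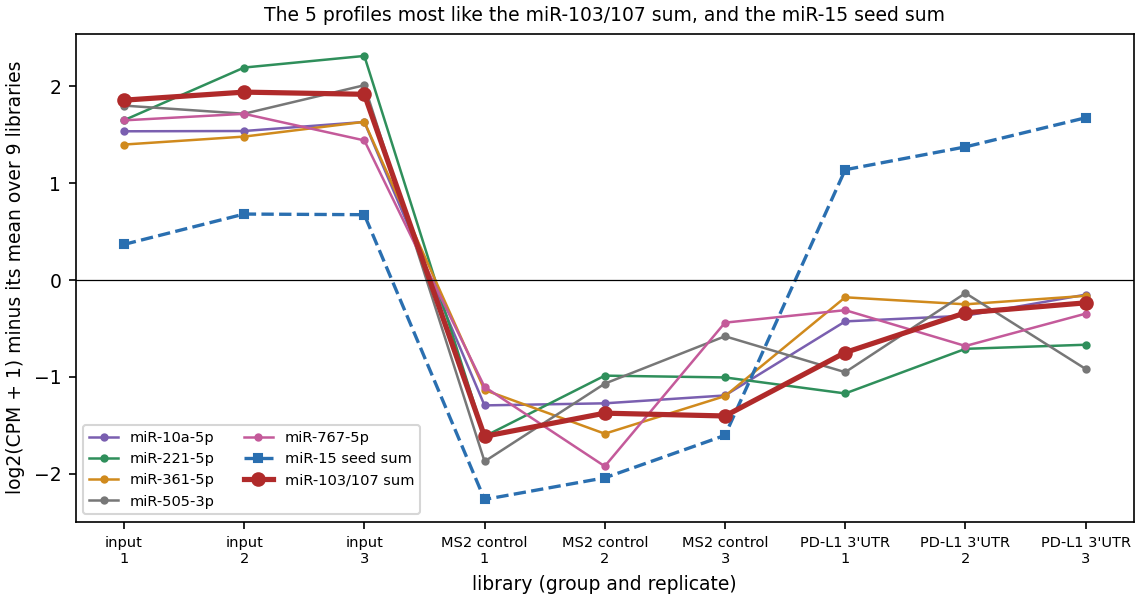
Log2(CPM + 1) minus its mean over the 9 libraries, for the sum of the pair (thick red), the 5 miRNAs of most similar profile (thin lines) and the sum of the 6 miR-15 seed miRNAs (dashed blue); lines only join the values of one miRNA, and libraries have no order within a group. The 5 thin lines follow the pair, at root mean square differences of 0.26 to 0.49, and the dashed line lies below the pair in the input and MS2 control libraries and above it in the PD-L1 3'UTR libraries.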

How the data were processed

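The 9 single-end small RNA libraries came from ES-2 cells. The authors deposited unnormalised counts, with 1 row for each locus of a mature miRNA. The submitters' processing notes name cutadapt 1.18, Bowtie2 2.2.6, featureCounts 1.6.3 and hg38. The strand setting and the treatment of reads that fit several loci were not given in the sources used here. Groups and replicate numbers follow the sample labels, and columns were matched to samples by their descriptions.

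Loci of a name were summed, miRNAs were kept by filterByExpr (408 of 2652 names), and libraries were scaled by TMM factors (0.742 to 0.782 in the input, 1.129 to 1.247 on the MS2 control, 1.109 to 1.145 on the PD-L1 3'UTR). The 9 libraries entered a single fit of 3 group means in edgeR 4.0.16 in R 4.3.3 (glmQLFit, glmQLFTest, two-sided), with Benjamini-Hochberg adjustment over all 408 and a threshold of 0.05. The SE is the size of a log2 fold change over the square root of its F statistic. The ratio of miR-107 to miR-103a-3p within a library was tested by exact permutation (scipy 1.17.1). Named miRNAs are the pair, the other products of its loci, the rest of the miR-15 and miR-107 group and the 5 of most similar profile (pseudocount of 1 CPM). The pair, the lists and the tests were chosen with earlier results of these data known. Simulated counts in which 200 miRNAs differed by a log2 fold change of 2, made for the PD-L1 3'UTR against the MS2 control over 408 miRNAs, gave 89.4% of them back, with 2.62% of calls false. They were drawn from the model that edgeR fits, so departures of real counts from it were not tested. Changes of the size seen for the pair in that comparison (1.03 and 1.16) were not simulated. Wilson intervals and the floor of 3 counts take in counting error alone, because PCR copies of a molecule are counted as separate reads. Alternatives were the DESeq2 1.42.0 Wald test, edgeR's exact test, other scalings and filters, and a fit of only the groups compared. Others were each locus by itself, the summed pair, a replicate block and each library left out.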

Additional observations from a re-analysis of the deposited data

How the results depend on the processing

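The 9 fold changes of the pair and its sum kept their direction and their side of the threshold in all 168 alternatives run. Against the MS2 control, the log2 fold change on the PD-L1 3'UTR lay between 0.88 and 1.21 for miR-103a-3p (adjusted p of at most 0.00264) and between 0.98 and 1.25 for miR-107 (at most 0.00617). Against the input it lay between -2.60 and -1.78 for miR-103a-3p and between -2.32 and -1.45 for miR-107, with library totals giving the smallest differences. The exact permutation p for the ratio of miR-107 to miR-103a-3p lay between 0.139 and 0.7. Without the filter on low counts, the numbers of miRNAs called in the 3 comparisons were 323, 362 and 361, compared with 245, 271 and 285. The alternatives for relatives and for miRNAs of similar profile were chosen after seeing the data. Over all results, 890 of 909 values were classed as unchanged, the exceptions being mainly miR-16-5p and miR-15b-5p against the input. For fold changes and ratios, unchanged meant the same direction and side of the threshold. The 909 also take in numbers of miRNAs called, which have neither and were classed by the size of their change alone.

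Replicate numbers were shared by the 3 groups in the labels, but same-numbered libraries did not deviate together throughout. Their correlations ran from -0.18 to 0.13, 1 of 9 pairs was over 0.1, and 2 of 9 libraries correlated best with their own number. Between the trapped groups, same-numbered pairs gave 0.13, 0.07 and 0.1, and pairs of different numbers gave -0.12 to 0.03. With the input, same-numbered pairs gave -0.18 to 0.03. With the number as a replicate block, miR-103a-3p gave 1.02 against the MS2 control and -2.37 against the input, and miR-107 gave 1.15 and -2.04, and the block changed no call of the pair. With it, miR-221-5p was called higher than on the MS2 control (0.35, adjusted p = 0.0235, edgeR). The miR-107 counts of 63 to 170 on the PD-L1 3'UTR limit what can be said of its ratio to miR-103a-3p.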

Other observations

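Replicate 2 had the lowest count of miR-107 per 100 counts of miR-103a-3p in each group, with 5.53 in the input, 5.21 on the MS2 control and 5.99 on the PD-L1 3'UTR. The other replicates lay between 6.23 and 9.21. Replicate 1 had the highest in each group, and between libraries with the same number the PD-L1 3'UTR exceeded the MS2 control in 3 of 3 cases (9.21 and 8.65, 5.99 and 5.21, 8.32 and 7.76). The order of replicates was seen in the data, and over all miRNAs same-numbered libraries correlated only weakly, at 0.13 or less. With labels permuted only within a replicate number, the exact permutation p for the ratio across groups was 0.139.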
